A study of Homo sapiens with 6 samples.

Results

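The kinetochore and spindle checkpoint genes are 43 genes whose products build the attachment site between chromosomes and the mitotic spindle, or signal that an attachment is missing. They were taken as the genes whose probe carries that symbol alone in the annotation of the array, after outdated symbols had been updated. The rule uses no expression value, but the list of genes was drawn up with earlier results of these data known. All 43 had a probe, so they make up 43 of the 18336 genes measured and 53 of the 31741 probes. They were divided by role into 19 genes of the inner centromere and inner kinetochore, 15 of the outer kinetochore and 9 of the checkpoint.

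The samples were TFK-1 cells, an established human line from an extrahepatic cholangiocarcinoma. One group, of 3 samples, overexpressed HOXA5, a homeobox transcription factor (HOXA5 cells), and the other, also of 3 samples, is labelled normal control (control cells). The protocol given for both groups is transduction with lentivirus followed by puromycin selection of a stable line, so a group is a selected population. Neither the promoter that drives HOXA5 nor what the control virus carried is stated in the labels. Each sample was hybridized to 1 single-colour Human OneArray slide. Separate cultures or transductions are not mentioned for the samples of a group. The p-values therefore reflect only how far these 3 samples differ from each other, and that spread may be technical.

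Centromeres carry nucleosomes with the histone H3 variant CENP-A, which are loaded by the chaperone HJURP with the help of the MIS18 proteins. On them sits the constitutive centromere-associated network (CCAN), and in mitosis the outer kinetochore assembles on the CCAN and grips spindle microtubules through the NDC80 and SKA complexes. An unattached kinetochore recruits the kinases TTK and BUB1 and the MAD and BUB proteins, which hold the cell before anaphase. Many of these genes are transcribed mainly late in the cell cycle. In bulk RNA, fewer cells in that stage and less RNA per cell cannot be told apart.

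A stretch of promoter is shown for the gene with the largest fall in the outer kinetochore (SPC25) and in the checkpoint (MAD2L1), for the inner centromere gene with the largest fall among those with a listed promoter (ERCC6L), and for the only gene of the 43 that rose (MIS12, which was picked after its value had been seen). Each runs from 250 bases before to 30 bases after a RefSeq transcription start, written 5′ to 3′ on the strand of the gene, in build GRCh38.p14. The intervals are chrX:72238998-72239277 on the minus strand for ERCC6L, chr2:168890401-168890680 on the minus strand for SPC25, chr4:120066819-120067098 on the minus strand for MAD2L1 and chr17:5486124-5486403 on the plus strand for MIS12, at the first of its 2 listed starts. Capitals mark exact matches, on either strand, to the letters TTTGAA (the CHR element of late cell-cycle promoters), CCAAT (the NF-Y box), TTCCCGC or TTGGCGC (E2F sites), CACGTG (the E-box) and TAATTA (a homeodomain core).
ERCC6L: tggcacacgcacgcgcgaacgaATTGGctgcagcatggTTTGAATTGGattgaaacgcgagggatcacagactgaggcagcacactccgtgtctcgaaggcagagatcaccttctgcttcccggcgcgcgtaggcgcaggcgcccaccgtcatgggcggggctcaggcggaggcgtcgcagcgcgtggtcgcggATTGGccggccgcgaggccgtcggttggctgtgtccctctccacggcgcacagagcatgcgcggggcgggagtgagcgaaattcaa
SPC25: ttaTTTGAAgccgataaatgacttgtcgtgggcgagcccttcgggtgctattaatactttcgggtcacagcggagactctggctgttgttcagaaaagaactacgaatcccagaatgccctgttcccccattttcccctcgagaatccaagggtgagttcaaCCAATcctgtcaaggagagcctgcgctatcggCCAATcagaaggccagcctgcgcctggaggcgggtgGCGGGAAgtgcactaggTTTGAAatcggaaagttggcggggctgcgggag
MAD2L1: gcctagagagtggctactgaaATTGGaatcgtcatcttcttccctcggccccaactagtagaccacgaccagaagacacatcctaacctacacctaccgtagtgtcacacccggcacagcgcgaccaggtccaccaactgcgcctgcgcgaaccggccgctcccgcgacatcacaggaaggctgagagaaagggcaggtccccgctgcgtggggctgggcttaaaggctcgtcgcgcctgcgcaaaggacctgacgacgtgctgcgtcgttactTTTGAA
MIS12: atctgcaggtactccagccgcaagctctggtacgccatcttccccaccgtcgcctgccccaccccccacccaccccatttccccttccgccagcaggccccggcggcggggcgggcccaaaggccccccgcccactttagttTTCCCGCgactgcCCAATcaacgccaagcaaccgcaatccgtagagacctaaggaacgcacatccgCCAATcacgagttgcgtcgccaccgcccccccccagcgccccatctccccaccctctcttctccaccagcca
The SPC25 stretch held TTTGAA at -247 and again at -3 relative to the start, CCAAT at -88 and -56, and an E2F match on the other strand at -20. In MAD2L1, TTTGAA lay at 25 bases past the start and an NF-Y box on the other strand at -229. ERCC6L had TTTGAA at -212, sharing bases with the NF-Y box at -207, and further NF-Y boxes at -228 and -56. The MIS12 stretch held an E2F match at -108 and CCAAT at -95 and -42, and none of the printed letters read TTTGAA. A match is only a run of letters.

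Values are log2 of the raw intensity plus an offset of 50, quantile normalized over the 6 arrays, and changes are HOXA5 cells minus control cells on that scale, with the standard error (SE) of the fit and n = 3 arrays per group. The words rose and fell are kept for genes to which limma gave an adjusted p under 0.05, by Benjamini-Hochberg over all probes. The offset makes the changes of dim genes look smaller than they are, and the level of a probe cannot be set against that of another probe. The probe used for HOXA5 rose by 1.94 ± 0.12 (limma adjusted p = 0.000766). Its raw intensities were 585, 502 and 312 on the HOXA5 arrays against 110, 118 and 49 on the control arrays. The other HOXA5 probe had a change of -0.34 ± 0.07 (limma adjusted p = 0.0253), from 152, 155 and 96 against 214, 222 and 153. That other probe read higher on every control array, so the probe used had the higher mean only through the HOXA5 arrays. Where the probes lie on the transcript was not analysed here. Of 6 biliary markers with a probe, 5 were bright (flag 0 in the deposited table) on all 6 arrays and KRT19, CDH1 and SOX9 rose. Among 11 markers of hepatocytes, leukocytes, endothelium and fibroblasts, APOA1, CD68 and COL1A1 were bright on all arrays and APOA1, a hepatocyte marker, rose by 0.89 (limma adjusted p = 0.0279), while ALB, PTPRC, CD3E, COL1A2 and DCN were dim on all. Their summed raw intensity ran from 1389 to 3219 in HOXA5 cells and from 1518 to 2334 in control cells, and the part of other cell types in the results was not tested. HOXA5 replicate 2 stood apart, with correlations of 0.979 and 0.973 over all probes with the other HOXA5 arrays, against 0.992 between those and 0.990 to 0.995 among the control arrays. HOXA5 replicate 3 was the dimmest array, with a median raw intensity of 95.

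The machinery was lower in HOXA5 cells at every layer. Of the 43 genes, 32 fell, 1 rose and 10 did not pass the test, where 11.0% of all genes measured fell and 13.1% rose. A fall of at least 2-fold was measured for 20 of the 43, where the share over all genes was 2.39%. None of the 43 rose by at least 2-fold, where 3.83% of all genes did. The median change of the 43 genes was -0.84, which is 1.78-fold lower in HOXA5 cells, against a median of -0.01 over all genes. Changes ran from -2.32 for CENPM to 0.53 for MIS12, and 41 of the 43 lay below 0. The 3 HOXA5 values lay wholly below the 3 control values for 34 genes, where this held for 20.4% of all genes, and wholly above them for MIS12 alone, where it held for 21.0%. Averaged over the 43 genes, the arrays read 9.65, 9.69 and 9.70 in HOXA5 cells and 10.66, 10.62 and 10.58 in control cells, so each HOXA5 array lay below each control array. The 43 genes are brighter than most (41 of their probes lay above the median probe), and among the 13273 genes at least as bright as the dimmest of them 14.4% fell, and 3.28% fell by at least 2-fold. Without HOXA5 replicate 2, 35 of the 43 passed as lower and 22 of them by at least 2-fold, in a fit in which 5421 of all genes passed in either direction against 4409 with all arrays. Without any 1 of the other arrays the counts were lower, with 25 and 14 without HOXA5 replicate 1, 27 and 19 without HOXA5 replicate 3, 24 and 16 without control replicate 1, 26 and 18 without control replicate 2 and 28 and 19 without control replicate 3. Fewer of all genes passed in those fits too, with 3461, 3336, 2460, 2799 and 2726 in the same order.

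**Figure D1:**
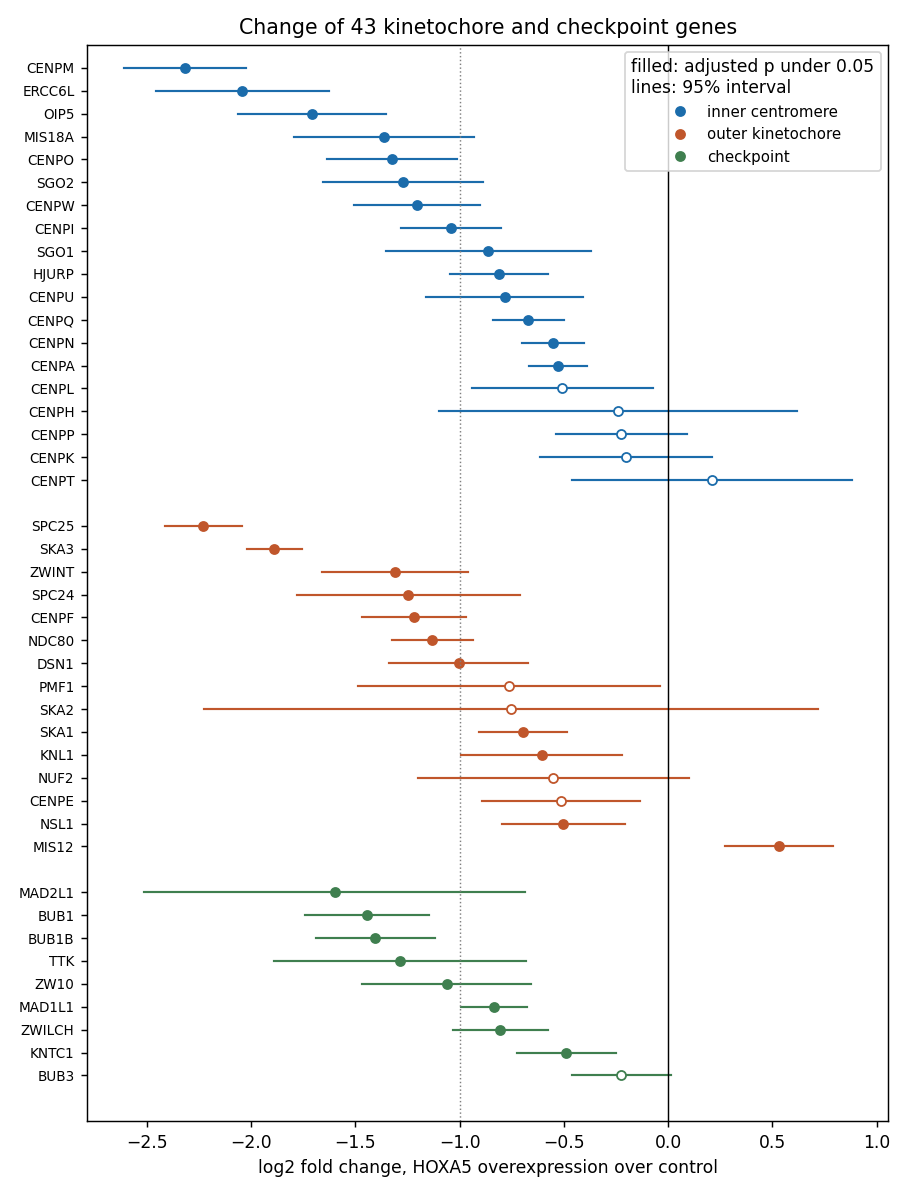
Log2 fold change of each of the 43 genes, HOXA5 overexpression over control, with its 95% confidence interval, ordered by size within the 3 groups (inner centromere at the top, outer kinetochore in the middle, checkpoint at the bottom). Filled points passed an adjusted p under 0.05 and the dotted line marks a 2-fold fall. Of the filled points, 32 lie left of 0 and only MIS12 lies right of it.

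All 3 subgroups were mostly lower. In the inner centromere 14 of 19 genes fell, none rose and 8 fell at least 2-fold, with a median of -0.81. The outer kinetochore had 10 of 15 genes that fell, 7 of them at least 2-fold, and 1 that rose, with a median of -0.76. In the checkpoint 8 of 9 genes fell, 5 of them at least 2-fold, with the lowest of the 3 medians, -1.06. The difference between the subgroups was not tested. By array, the mean of the checkpoint genes was 10.26, 10.18 and 10.37 in HOXA5 cells and 11.35, 11.22 and 11.29 in control cells. The inner centromere genes averaged 9.40, 9.53 and 9.47 in HOXA5 cells and 10.42, 10.41 and 10.33 in control cells, and the outer kinetochore genes 9.61, 9.60 and 9.58 against 10.56, 10.53 and 10.48. The arrays of the 2 groups did not overlap in any of these means. The checkpoint count was 5 of 9 without HOXA5 replicate 1 and also without control replicate 1, with medians of -0.95 and -1.01. In those fits the outer kinetochore count was 8 and 7 of 15, and the inner centromere count 12 of 19 in both. Over all genes 3461 and 2460 passed there, against 4409 with all arrays.

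**Figure D2:**
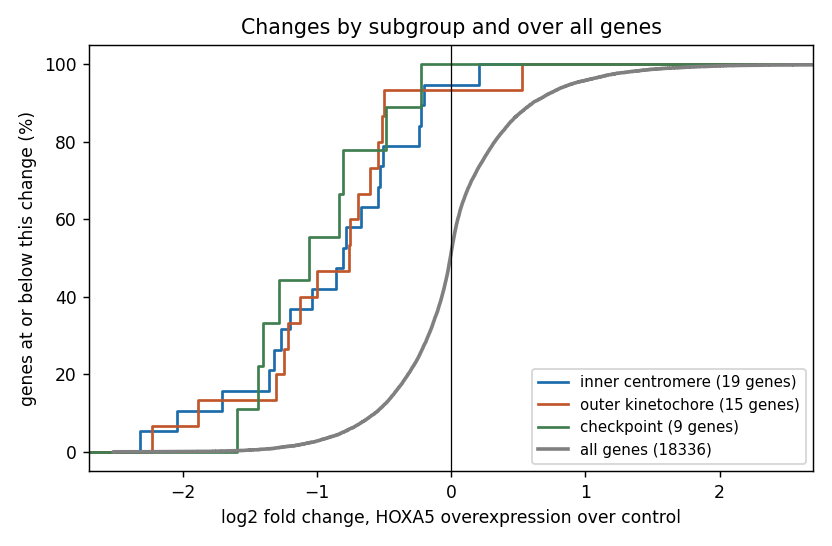
Cumulative share (vertical axis, percent) of genes at or below a log2 fold change of HOXA5 overexpression over control (horizontal axis), for the 19 inner centromere, 15 outer kinetochore and 9 checkpoint genes and for all 18336 genes. The 3 coloured curves lie to the left of the grey curve of all genes, with medians of -0.81, -0.76 and -1.06 against -0.01.

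In the inner centromere, the genes that load CENP-A fell together. All 4 passed, with a median change of -1.09. OIP5, a subunit of the MIS18 complex that licenses centromeres for new CENP-A, read 8.96, 9.35 and 9.00 in HOXA5 cells and 10.89, 10.93 and 10.61 in control cells. It was 3.27-fold lower in HOXA5 cells (change -1.71 ± 0.14, limma adjusted p = 0.00158), with a gap of more than 1 log2 unit between the groups. MIS18A, its partner in the same complex, read 10.24, 10.61 and 10.01 in HOXA5 cells and 11.76, 11.72 and 11.46 in control cells. Its groups did not overlap either, and it fell by 1.36 ± 0.17 (limma adjusted p = 0.00509). The chaperone HJURP (-0.81 ± 0.09) and CENPA itself, the histone (-0.53 ± 0.06), fell by less. A second probe of CENPA had a change of -0.13 ± 0.16 and did not pass (limma adjusted p = 0.636), with a 95% interval that overlaps that of the first, and the mean of both probes passed (-0.33, limma adjusted p = 0.0268).

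The CCAN, the constitutive layer, had the widest range of changes of the 10 complexes, between -2.32 and 0.21, with 7 of 12 genes that fell. It was also the complex with the most genes, and a range tends to widen with their number. CENPM, a small GTPase-like subunit of the CENP-H/I/K/M group, had the largest fall of all 43 genes. Its arrays read 8.65, 8.59 and 8.85 in HOXA5 cells and 10.82, 11.13 and 11.11 in control cells, which made it 4.99-fold lower in HOXA5 cells (change -2.32 ± 0.12, limma adjusted p = 0.000547). In raw intensity this was 414, 382 and 282 in HOXA5 cells against 1993, 2540 and 1943 in control cells. CENPI, of the same group, fell by 1.04 ± 0.10, whereas the remaining subunits CENPH (-0.24 ± 0.34) and CENPK (-0.20 ± 0.17) did not pass. CENPO (-1.32 ± 0.13), CENPU (-0.78 ± 0.15) and CENPQ (-0.67 ± 0.07), which belong to the CENP-O group with CENPP, fell. CENPU did not pass without HOXA5 replicate 1 (limma adjusted p = 0.0660), HOXA5 replicate 3 (0.0609), control replicate 1 (0.0748) or control replicate 2 (0.0733). CENPW, a histone-fold protein, fell by 1.21 ± 0.12, while its binding partner CENPT had a change of 0.21 ± 0.27 and did not pass. CENPN, which reads the CENP-A nucleosome, fell on both of its probes (-0.55 ± 0.06 on the brighter, -1.35 ± 0.09 on the other).

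The values that did not pass in this layer differed in their spread. CENPL, the partner of CENPN, read 8.16, 8.48 and 7.91 in HOXA5 cells and 8.81, 8.80 and 8.47 in control cells. Its highest HOXA5 value lay just above its lowest control value, and its change of -0.51 ± 0.17 missed the threshold (limma adjusted p = 0.103). Without HOXA5 replicate 2 it passed at -0.66 (0.0317). CENPH read 8.02, 7.26 and 8.26 in HOXA5 cells and 7.96, 7.70 and 8.60 in control cells, so its groups overlapped. The 95% interval of its change runs from -1.10 to 0.62, and its sign turned without HOXA5 replicate 2 (0.06) and without control replicate 3 (0.01). CENPP read 6.90, 7.36 and 7.21 in HOXA5 cells and 7.35, 7.45 and 7.35 in control cells, near the dim end of the array and dim on 1 array. Its change was -0.22 ± 0.13 (limma adjusted p = 0.290). For CENPT, too, the sign turned without HOXA5 replicate 2 (-0.07), the array on which it was highest at 11.24.

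The genes that guard sister chromatids at the centromere all fell. ERCC6L encodes PICH, a DNA translocase that coats the threads still linking chromatids in anaphase. It read 8.13, 7.91 and 8.50 in HOXA5 cells and 10.26, 10.07 and 10.34 in control cells. With more than 1 log2 unit between the groups it was 4.12-fold lower in HOXA5 cells (change -2.04 ± 0.17, limma adjusted p = 0.00149), the second largest fall of the inner centromere. The shugoshins SGO2 (-1.27 ± 0.15) and SGO1 (-0.86 ± 0.20), which protect centromeric cohesin, also fell. SGO1 did not pass without HOXA5 replicate 1 (limma adjusted p = 0.0943), HOXA5 replicate 3 (0.0954), control replicate 1 (0.120) or control replicate 2 (0.106). Both other probes of SGO1 were dim on all 3 HOXA5 arrays. The brighter of these had a change of -0.67 ± 0.23 and did not pass (limma adjusted p = 0.100). The dimmer fell (-0.42 ± 0.08, limma adjusted p = 0.0213).

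**Figure D3:**
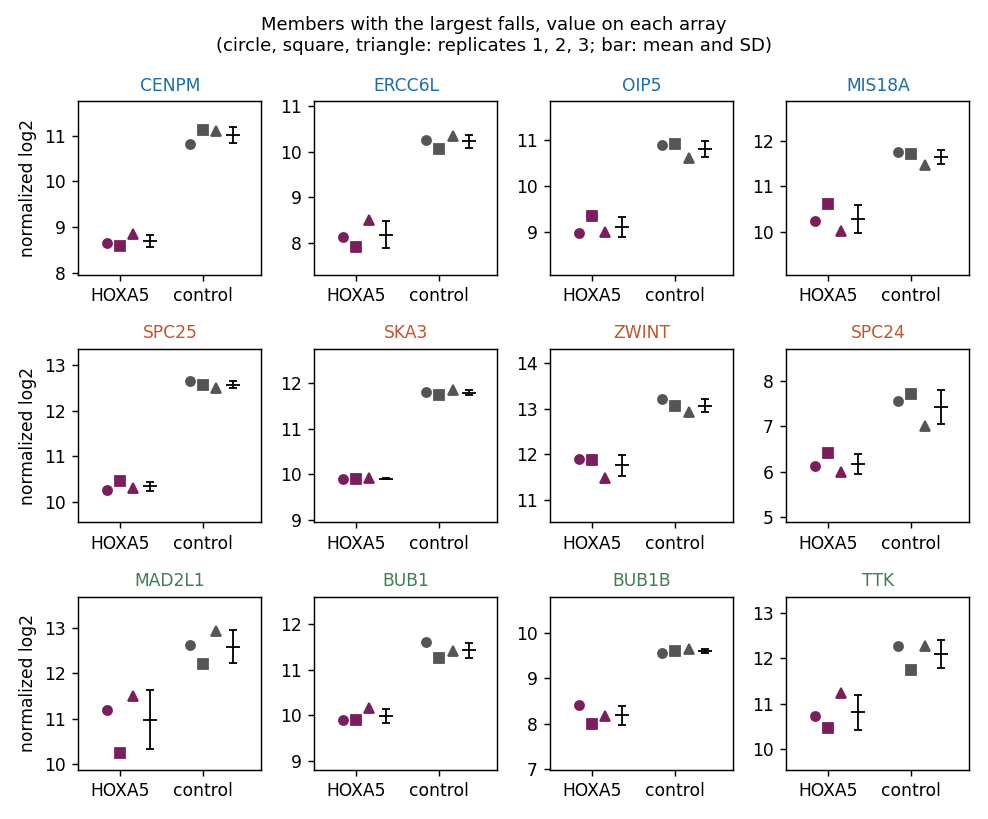
Normalized log2 intensity on each array for the 4 genes with the largest changes in each group: inner centromere (top row), outer kinetochore (middle row) and checkpoint (bottom row). Circles, squares and triangles are replicates 1, 2 and 3, HOXA5 cells stand left of control cells, and bars give the mean and SD of 3 arrays. In all 12 genes every HOXA5 array lies below every control array, with the widest spread in MAD2L1.

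At the outer kinetochore, the NDC80 complex, the main microtubule-binding unit, had falls in 3 of 4 subunits. SPC25, on the end of the complex that docks to the chromosome side, read 10.27, 10.45 and 10.31 in HOXA5 cells and 12.65, 12.56 and 12.51 in control cells. The arrays within a group differed by less than 0.2 log2 units, and SPC25 was 4.69-fold lower in HOXA5 cells (change -2.23 ± 0.07, limma adjusted p = 0.000216). SPC24, its dimer partner, was dim on all 3 HOXA5 arrays, with raw intensities of 25, 40 and 7 there against 166, 175 and 59 on the control arrays. Only a bound can be given for it, and it was at least 1.43-fold lower in HOXA5 cells (limma adjusted p = 0.0136), although its measured value counts it among the 2-fold falls. The bound sets the control mean against, on each HOXA5 array, the higher of the probe and the lowest value among bright probes. SPC24 lost its call when replicate 1 of either group was left out (limma adjusted p = 0.0513 without the HOXA5 array and 0.0636 without the control array). NDC80, which carries the microtubule-binding head, fell by 1.13 ± 0.08. NUF2, its partner, had a change of -0.55 ± 0.26 (limma adjusted p = 0.212), from 7.81, 7.07 and 7.81 in HOXA5 cells and 8.04, 7.85 and 8.45 in control cells. Its groups did not overlap, but the distance between them was small beside the spread within each.

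The other microtubule binders were split in the same way. SKA3, of the SKA complex that tracks microtubule ends, read 9.89, 9.91 and 9.93 in HOXA5 cells and 11.81, 11.74 and 11.84 in control cells. It had the smallest SE of the 43 genes, at -1.89 ± 0.05 (limma adjusted p = 0.000206), and was 3.70-fold lower in HOXA5 cells. SKA1 fell by 0.70 ± 0.08. SKA2, the third subunit, read 9.83, 8.03 and 9.87 in HOXA5 cells and 9.98, 9.42 and 10.60 in control cells. The value on HOXA5 replicate 2 was far below the other 2, the groups overlapped, and the change of -0.75 ± 0.59 did not pass (limma adjusted p = 0.451, 95% interval -2.23 to 0.72). Without that array the change was -0.15, and a second probe had a change of -0.62 ± 0.20 that did not pass either (limma adjusted p = 0.0841). In the corona, CENPF, a large coiled-coil protein, fell by 1.22 ± 0.10. CENPE, a kinesin that moves chromosomes to the spindle equator, had a change of -0.51 ± 0.15 that did not pass (limma adjusted p = 0.0701) and did pass without HOXA5 replicate 2 (-0.65, 0.0260).

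The scaffold beneath the microtubule binders contained the only gene that rose. ZWINT, which joins KNL1 to the RZZ complex of the checkpoint, read 11.90, 11.89 and 11.49 in HOXA5 cells and 13.21, 13.06 and 12.94 in control cells. Its groups were more than 1 log2 unit apart, and it fell by 1.31 ± 0.14 (limma adjusted p = 0.00305). KNL1, the docking platform for the BUB proteins, fell by 0.61 ± 0.15, close to the threshold (limma adjusted p = 0.0453), and missed it without any 1 of 5 arrays, with adjusted p from 0.0826 without HOXA5 replicate 1 to 0.151 without control replicate 1 (HOXA5 replicate 3 0.114, control replicate 2 0.114 and control replicate 3 0.0945). Of the MIS12 complex, which links the CCAN to NDC80, DSN1 (-1.01 ± 0.13) and NSL1 (-0.50 ± 0.12) fell. NSL1 did not pass on its second probe (-0.33 ± 0.19) or when any 1 array other than HOXA5 replicate 1 was left out (limma adjusted p from 0.0629 without control replicate 3 to 0.130 without control replicate 1, with 0.0648 and 0.0824 without HOXA5 replicates 2 and 3 and 0.116 without control replicate 2). PMF1 read 11.06, 12.03 and 11.10 in HOXA5 cells and 12.29, 12.28 and 11.92 in control cells, with HOXA5 replicate 2 alone reaching the control values. Its change was -0.76 ± 0.29 (limma adjusted p = 0.134), and without that array it was -1.09 (0.00751).

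MIS12, the subunit after which that complex is named, went the other way. Its arrays read 9.73, 10.02 and 9.97 in HOXA5 cells and 9.43, 9.45 and 9.25 in control cells. The raw intensities were 925, 1049 and 679 in HOXA5 cells against 732, 725 and 475 in control cells, where HOXA5 replicate 3, the dimmest array, lay below control replicates 1 and 2. After normalization all HOXA5 values lay above all control values. The rise was 1.44-fold (change 0.53 ± 0.10, limma adjusted p = 0.0204). It was not firm to the loss of an array, since it did not pass without HOXA5 replicate 3 (limma adjusted p = 0.0663) or without control replicate 1 (0.0673), 2 (0.0558) or 3 (0.0672).

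**Figure D4:**
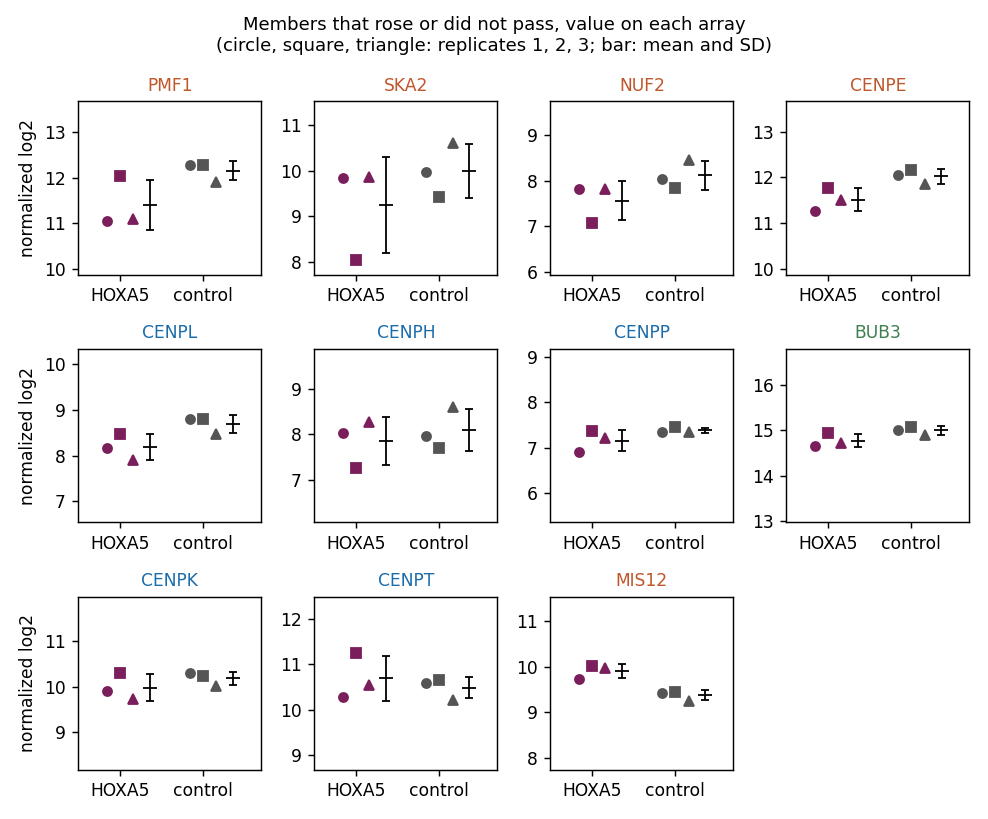
Normalized log2 intensity on each array for the 10 genes that did not pass and for MIS12, which rose. Circles, squares and triangles are replicates 1, 2 and 3, HOXA5 cells stand left of control cells, and bars give the mean and SD of 3 arrays. HOXA5 replicate 2 lies apart from the other 2 HOXA5 arrays in SKA2, PMF1, NUF2, CENPH and CENPT, and all MIS12 values of HOXA5 cells lie above those of control cells.

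The kinases TTK and BUB1 and every other checkpoint gene except BUB3 fell. BUB1, a kinase that marks kinetochores for checkpoint proteins and shugoshin, read 9.89, 9.91 and 10.16 in HOXA5 cells and 11.60, 11.27 and 11.42 in control cells. It was 2.72-fold lower in HOXA5 cells (change -1.44 ± 0.12, limma adjusted p = 0.00156), with more than 1 log2 unit between the groups. BUB1B, which encodes BUBR1 of the mitotic checkpoint complex, read 8.41, 8.00 and 8.16 in HOXA5 cells and 9.55, 9.60 and 9.64 in control cells. Its control arrays lay within 0.1 log2 units of each other, and it fell by 1.40 ± 0.11 (limma adjusted p = 0.00148). MAD1L1, which carries MAD2 to the kinetochore, fell by 0.84 ± 0.06.

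MAD2L1 and TTK had large falls with a wider spread. MAD2L1 encodes MAD2, the protein that binds and blocks CDC20. It read 11.19, 10.25 and 11.51 in HOXA5 cells and 12.63, 12.20 and 12.92 in control cells, lowest on replicate 2 in both groups. The change of -1.60 ± 0.37 made it 3.03-fold lower in HOXA5 cells (limma adjusted p = 0.0330). It did not pass without HOXA5 replicate 1 (0.0752) or without control replicate 1 (0.115), 2 (0.0611) or 3 (0.102), although the change stayed between -1.78 and -1.43 in those fits. TTK, the kinase that starts checkpoint signalling, read 10.73, 10.47 and 11.23 in HOXA5 cells and 12.28, 11.75 and 12.26 in control cells. Its lowest array was again replicate 2 in both groups. It was 2.44-fold lower in HOXA5 cells (change -1.29 ± 0.24, limma adjusted p = 0.0181) and did not pass without HOXA5 replicate 1 (0.0624), control replicate 1 (0.0764) or control replicate 3 (0.0659). Of the 43 genes, 9 were lowest on replicate 2 in both groups, 9 on replicate 3 and 1 on replicate 1. Among control arrays alone, replicate 3 was lowest for 26 of the 43, replicate 2 for 12 and replicate 1 for 5. Among HOXA5 arrays alone, replicate 1 was lowest for 19, replicate 2 for 13 and replicate 3 for 11. Whether the counts in both groups reflect a link between arrays of the same number was not tested.

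BUB3 was the only checkpoint gene that did not pass. It encodes a WD-repeat protein that partners BUB1 and BUBR1, and it read 14.66, 14.94 and 14.72 in HOXA5 cells against 15.02, 15.08 and 14.90 in control cells. The groups overlapped slightly and the change was -0.22 ± 0.10 (limma adjusted p = 0.169). Without HOXA5 replicate 2 it passed at -0.31 (0.0438), and a second, dimmer probe had a change of -1.12 ± 0.31 (0.0596), so the size of its change is uncertain. All 3 subunits of the RZZ complex, which brings dynein and MAD1 to kinetochores, fell, with changes of -1.06 ± 0.16 for ZW10, -0.81 ± 0.09 for ZWILCH and -0.49 ± 0.10 for KNTC1. KNTC1 did not pass without HOXA5 replicate 1 (limma adjusted p = 0.0635), HOXA5 replicate 3 (0.0614), control replicate 1 (0.0825) or control replicate 2 (0.0726).

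The letters searched in the promoters differed in how often they occurred among genes that fell. RefSeq windows, from 250 bases before to 50 after a start, were listed for 35 of the 43 genes, and CENPL, TTK, KNTC1, KNL1, CENPH, MIS18A, CENPM and BUB3 had none. TTTGAA stood in a window of 14 of the 27 genes that fell (51.9%) and of 10 of the 17 that fell at least 2-fold (58.8%). It stood in 1 of the 8 that rose or did not pass (12.5%), which was NUF2, and in 15.9% of the 14641 genes on the array with a window. CCAAT was found for 66.7% of the genes that fell, 62.5% of those that rose or did not pass and 42.3% of genes on the array. The E2F letters were found for 29.6% of those that fell, 25% of those that rose or did not pass and 15.1% of genes on the array. The E-box was found for 7.41% of those that fell (2 genes), 25% of those that rose or did not pass (2 genes) and 11.0% of genes on the array. TAATTA was found for 3.70% of those that fell, 12.5% of those that rose or did not pass (1 gene each) and 4.46% of genes on the array. The 15 genes with TTTGAA had a median change of -1.22 and the 20 without it -0.80. For the other motifs the genes with a match had the smaller median fall: -0.86 with and -0.92 without CCAAT, -0.79 with and -1.01 without the E2F letters, -0.69 with and -1.01 without the E-box, and -0.78 with and -1.01 without TAATTA. These shares are descriptions of small groups, and matches of different motifs shared bases in 3 windows of the 43 genes.

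**Figure D5:**
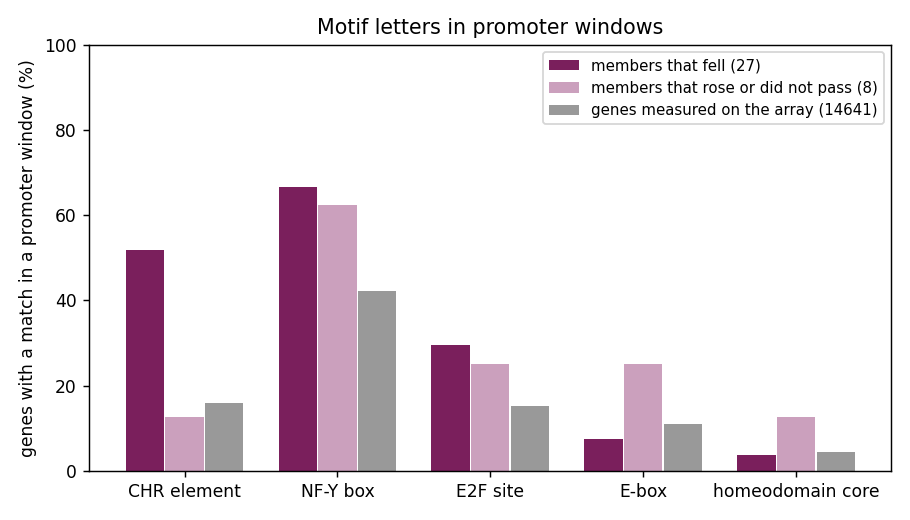
Share of genes (vertical axis, percent) with at least 1 exact match to each motif in a promoter window, for the 27 genes that fell, the 8 that rose or did not pass and 14641 genes measured on the array. TTTGAA, the CHR element, stands at 51.9% for the genes that fell, against 12.5% and 15.9%.

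Other genes of the kinetochore, from a list of 25, were also mostly lower. Of 22 with a probe, 12 fell, 7 of them at least 2-fold, 1 rose and 9 did not pass, with a median change of -0.77. Over all genes measured, 11.0% fell, 2.39% fell by at least 2-fold and 13.1% rose. PLK1, a kinase that acts at kinetochores through mitosis, fell by 1.73 ± 0.18 (limma adjusted p = 0.00297). Survivin and borealin, the chromosomal passenger subunits encoded by BIRC5 and CDCA8, fell (-1.57 ± 0.16 and -1.35 ± 0.20). AURKB, of the same complex, fell by 0.77 ± 0.08. INCENP, the scaffold of that complex, had a change of -0.08 ± 0.16 and did not pass. Its probe had the lowest mean of the 22, with raw intensities from 68 to 207. TRIP13, an ATPase that remodels MAD2, fell by 1.51 ± 0.08. KNSTRN, a spindle-binding adaptor, had a change of -1.22 ± 0.43 and did not pass (limma adjusted p = 0.114). NDEL1, a dynein regulator, rose by 0.34 ± 0.06 (limma adjusted p = 0.0130). MXD1, a gene that the study also followed and that encodes a partner of MAX, rose by 1.14 ± 0.09 (limma adjusted p = 0.00152) on the brightest of its 3 probes.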

How the data were processed

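RNA of 3 HOXA5-overexpressing and 3 control TFK-1 samples was amplified, labelled with Cy5 and read on single-colour arrays. The authors deposited raw linear intensity per probe, with a detection p-value and a flag. The methods name an Agilent scanner for reading and extraction; neither the software, nor the background correction, nor the meaning of the flags is given in the sources used here. Flag 0 starts at raw intensities of 58 to 67 depending on the array, and probes at the other flag are called dim. Raw values ran from -2 to 65516. A second table deposited by the authors, normalized with GeneSpring per the methods, holds linear intensity equal to the raw value times 1 constant per array, and how the constants were set is unknown. The detection p-value deposited by the authors was not used.

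After adding an offset of 50, taking log2 and quantile normalization, limma 3.58.1 in R 4.3.3 was fitted to all 31741 probes (lmFit, eBayes, two-sided p adjusted by Benjamini-Hochberg), with no covariate. The probe with the highest mean stood for its gene, and 977 probes annotated to several genes were not used. The limma fit was tested on simulated data, but the offset, the normalization and the choice of probe were not. The 43 genes, the subgroups and the other lists were chosen with earlier results of these data known. Per-array values are given for the 4 genes of each subgroup with the largest change past the test and for up to 3 that did not pass. MIS12 was added after its values were seen, as were CENPE, CENPK and CENPT in the plots. Promoter windows are those of RefSeq on GRCh38.p14. The alternatives, 18 in all, were 3 other scalings, the authors' table, 2 other offsets, a filter on dim probes, an intensity trend, array weights, the methods' t-test, the mean of all probes, the replicate block and leaving out each array.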

Additional observations from a re-analysis of the deposited data

How the results depend on the processing

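Of the 32 genes that fell, 22 kept the call under all 18 alternatives. The other 10 (CENPQ, CENPU, SGO1, SPC24, NSL1, KNL1, MAD2L1, TTK, ZWILCH and KNTC1) lost it under at least 1, all with the change still below 0, and the causes were not tested. The authors' values and the methods' t-test, adjusted, each called 24 of the 43 as lower (33 by the t-test unadjusted), none as higher. The t-test called 5 checkpoint genes. Over all genes, 2109 passed with the authors' values, 2781 by the t-test, 2460 to 5421 with 1 array left out and 4409 as reported. Left-out arrays gave 24 to 35 lower and 0 to 1 higher calls, 14 to 22 falls of at least 2-fold, 12 to 15 inner centromere, 7 to 11 outer kinetochore and 5 to 9 checkpoint genes lower, and 11 to 13 other kinetochore genes lower. The medians then ran from -1.04 to -0.82 for all 43 genes, -0.91 to -0.74 for the inner centromere, -1.05 to -0.77 for the outer kinetochore and -1.14 to -0.95 for the checkpoint.

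The median of all 43 genes was -0.89 with median scaling, -0.91 with the authors' values, -0.90 at offset 16, -0.66 at offset 200 and -1.001 with array weights. In the same order the inner centromere gave -0.89, -0.91, -0.88, -0.68 and -0.89. The outer kinetochore gave -0.88, -0.89, -0.81, -0.61 and -1.001, and -0.86 with 75th percentile scaling. The checkpoint gave -0.96 at offset 200 and -1.20 with array weights. With SPC24 at its bound, the median of the 43 genes was -0.81. The change of CENPT was -0.027 with array weights and, with arrays left out, ran from -0.065 (without HOXA5 replicate 2) to 0.41, and that of CENPH from -0.44 to 0.055 (without HOXA5 replicate 2), with 0.014 without control replicate 3. The replicate numbers were not taken as pairs, since deviations of same-numbered arrays correlated at -0.13, 0.69 and 0.75 and HOXA5 replicate 1 correlated best with control replicate 3. With the replicate block 33 of the 43 were lower (5241 genes passed in all); CENPL and CENPE passed and KNL1 did not. For SPC24 and CENPP, the signal over background limits what can be measured.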
